A study of Oryza sativa with 4 samples.

Results

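The root cap covers the tip of the growing root. Its cells shield the meristem, secrete mucilage that eases passage through soil, sense gravity in the columella and are shed and replaced during growth. In plants such as Arabidopsis, transcription factors of the NAC family direct the maturation and release of these cells. Chromatin that is accessible to the transposase Tn5 marks promoters and other regulatory regions, so a nucleus can be sorted by where Tn5 cut its DNA.

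Root cap-like nuclei were examined in single-cell ATAC-seq libraries of rice root tips. They were chosen by Tn5 cut sites at 6 loci whose genes the study lists as accessible in root cap, in root hair or in both. A barcode had to hold 10000 to 60000 cut sites in peaks. It had to hold 4 or more cut sites at the cap loci, chr4:32053554-32059455 with LOC_Os04g53640 and chr6:19737425-19740610 with LOC_Os06g33940. It also had to reach 2.5 per 10000 cut sites at the shared loci, chr8:18360068-18374234 with LOC_Os08g30770 and LOC_Os08g30780 and chr10:16835510-16847820 with LOC_Os10g31640. At the hair loci, chr10:16864903-16885590 and chr5:15714589-15717880, it had to stay under 4 per 10000. The rule was met by 1758 of the 39257 barcodes in that depth range.

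The samples were 4 libraries of nuclei from the primary root tips, 5 mm long, of Nipponbare seedlings, a japonica rice cultivar, 3 days old and grown at 28 °C. For 2 libraries (Normal) no other treatment is given, and for 2 (HS) the seedlings were kept at 45 °C for 3 h, per the study's methods. Root tips of many seedlings were pooled for each library. The study describes the heat experiment as 2 independent rounds and names replicates for the Normal root tips without saying how they were grown. The p-values measure only the spread between these libraries, which for Normal may be technical. The libraries held 350206085 to 364736225 cut sites in 65218 to 66704 peaks over 490848 to 517157 barcodes. Of these, 8762 to 10746 barcodes per library lay in the depth range, with a median of 25096 to 28625.5 cut sites. Between any 2 libraries 110 to 163 barcode sequences in the depth range were the same, and 0 or 1 of these were root cap-like in both. The sources used here do not give the genome build of the coordinates.

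The levels at the 6 loci chose the nuclei and are given as a description. The chr4 cap locus held 1.25 and 1.45 cut sites per 10000 in the root cap-like nuclei of the Normal libraries and 1.35 and 1.47 in those of the HS libraries. In the other barcodes of the depth range it held 0.117 to 0.125. The chr6 cap locus held 1.22 and 1.06 in Normal and 1.22 and 1.22 in HS, against 0.0773 to 0.118 in the other barcodes. At the chr8 shared locus the root cap-like nuclei held 3.03 to 3.28 and at the chr10 shared locus 1.70 to 2.11. Barcodes at or over the limit at the hair loci, called the hair-locus group here (4578 barcodes), held 2.85 to 3.28 and 2.22 to 2.61 there. The 2 groups overlapped at the chr8 locus and not at the chr10 locus. The hair loci held 1.17 to 1.25 and 0.201 to 0.225 in the root cap-like nuclei and 5.47 to 5.55 and 1.08 to 1.13 in the hair-locus group.

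Of the 1758 root cap-like nuclei, 1128 had cut sites at both cap loci, 347 at the chr4 locus only and 283 at the chr6 locus only. Their cut sites at the cap loci ranged from 4 to 32 with a median of 6, and 506 held exactly 4. The cap loci alone were met by 3634 barcodes, and 2265 of these also met the shared loci. The limit at the hair loci then left out 507. Another 3785 barcodes met the shared and the hair limits but not the cap loci.

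Root cap-like nuclei numbered 495 and 481 in the Normal libraries and 386 and 396 in the HS libraries. Their share of the barcodes was 4.62% and 4.48% in Normal and 4.41% and 4.38% in HS, with exact Clopper-Pearson 95% intervals from 3.97% to 5.04% that cover counting error only. The mean share was 4.55% ± 0.10 (SD, n = 2) in Normal and 4.39% ± 0.02 (SD, n = 2) in HS. Both HS libraries lay below both Normal libraries, but each share lay within the interval of every other library. The two-sided exact permutation test gave p = 0.333, the smallest that 2 against 2 libraries allow. The direction turned under some other limits and held under others. The share was 1.96% in Normal and 2.10% in HS with 8 or more cut sites required at the cap loci. With under 2 per 10000 required at the hair loci it was 3.21% and 3.22%. It was 5.05% and 4.77% at 15000 to 40000 cut sites, and 8.09% and 7.57% without the requirement at the shared loci. The cap limit does not scale with depth, and the median depth was 25233.5 and 25096 cut sites in Normal and 28625.5 and 28531 in HS. The part of depth in the share was not tested.

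The root cap label was checked against genes that the rule did not use. The study lists 669 genes as accessible in its root cap cluster and 1329 in its root hair cluster, with 125 in both. These lists were chosen on the same libraries and are not independent evidence. Root cap only means here listed for root cap and not for root hair, and likewise for root hair only. Listing for the other cell types of the study was not considered. Of the genes listed for root cap only, the start regions outside 50 kb of the rule loci numbered 464 (the root cap list). For root hair only, 964 start regions remained (the root hair list). The root cap list held 255 and 253 cut sites per 10000 in root cap-like nuclei of the Normal libraries and 265 and 263 in HS. The other barcodes held 139 and 139 in Normal and 136 and 136 in HS. The hair-locus group lay between them at 157 to 167. The root hair list held 292 to 302 in root cap-like nuclei, 219 to 228 in the other barcodes and 421 to 447 in the hair-locus group. Root cap-like nuclei were thus the highest group for the root cap list in each of the 4 libraries, and for the root hair list they stood between the other barcodes and the hair-locus group.

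**Figure D1:**
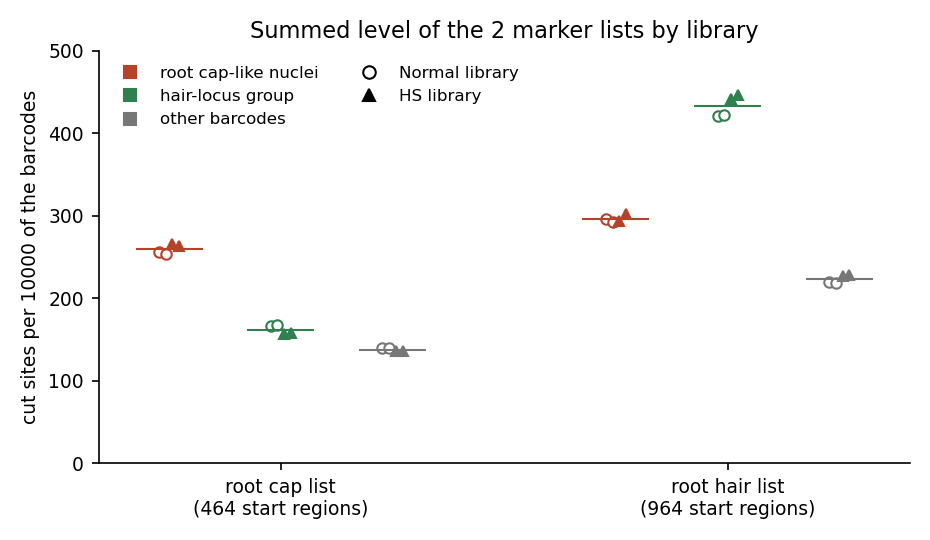
Cut sites per 10000 at the start regions of the root cap list (464 regions) and the root hair list (964 regions). Open circles are Normal libraries, triangles are HS libraries and lines are means of the 4 libraries. Root cap-like nuclei lie at 253 to 265 for the root cap list, above both other groups, and at 292 to 302 for the root hair list, below the hair-locus group.

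Single nuclei fell into a large and a small mode on the root cap list. The median root cap-like nucleus held 280 cut sites per 10000 at the list (quartiles 245 and 302). The median was 130 in other barcodes of matched depth and 154 in the hair-locus group. In the 4 libraries 82.6% to 89.1% of the root cap-like nuclei lay above the 95th percentile of the depth-matched barcodes of their library. A smaller mode lay near 145. Under 200 per 10000, a value chosen after the distribution was seen, were 259 root cap-like nuclei, 13.2% to 15.4% per library. This lower set had a median of 154 at the root cap list and of 341 at the root hair list, while the 1499 nuclei at or over 200 had medians of 286 and 288. The lower set was deeper, with a median of 39410 cut sites against 28164, and 68.0% of it held exactly 4 cut sites at the cap loci, against 22.0% of the upper set. The rule counts cut sites at the cap loci without regard to depth, and the part of depth, of 2 nuclei under 1 barcode or of other cell types in the lower set was not tested.

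**Figure D2:**
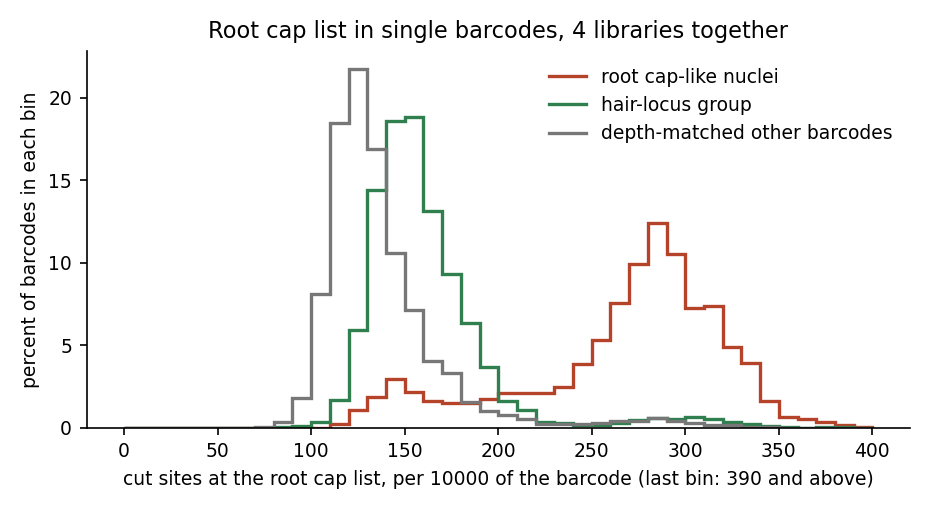
Percent of barcodes by their cut sites at the root cap list, per 10000 of the barcode, in bins of 10 with the last bin open. The 4 libraries are together. Root cap-like nuclei peak near 285, with a smaller mode near 145, while the depth-matched other barcodes and the hair-locus group have medians of 130 and 154.

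The rule did not take in all barcodes with a high root cap list. Among the other barcodes 1728 (4.61%) stood at or over 200 per 10000. Of these, 592 missed only the cap loci, 499 missed only the shared loci and 186 exceeded only the hair limit. The other barcodes thus include many with a root cap list as high as that of most root cap-like nuclei, and differences between the 2 groups are those of the rule, not of all root cap nuclei.

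Values on either side of the limits are given as a description. Cut sites mostly come in pairs, since 3.72% to 3.92% of the entries in the count tables were odd, so few barcodes held 3 cut sites at the cap loci. Root cap-like nuclei with exactly 4 cut sites there had a median of 254 at the root cap list, and the 1053 barcodes with 2 that met the other limits had 162. The median was 247 for the 33 barcodes with 3 and 144 for those with 0. The root cap list thus dropped between 4 and 2 cut sites at the cap loci. Nuclei with 2.5 to 3 per 10000 at the shared loci had a median of 262, and the 241 barcodes with 2 to 2.5 that met the other limits had 253. At the hair limit the medians were 245 for 3 to 4 per 10000 and 203 for 4 to 5.

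The root cap list varied with depth more than with the cap locus that was cut. Nuclei with cut sites at both cap loci had a median of 283, those with the chr4 locus only 272 and those with the chr6 locus only 269. Nuclei of 10000 to 20000 cut sites had a median of 287, those of 20000 to 40000 of 284 and the 324 nuclei over 40000 of 226. Thinned to 10000 cut sites each, the median nucleus had 6183.5 to 6325 open regions, against 6271 to 6339 in depth-matched other barcodes. It was lower in 4 of 4 libraries, with a mean difference of -36.75 ± 35.2 regions (SD, n = 4). The exact sign-flip permutation test gave p = 0.125, the smallest that 4 libraries allow.

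Markers of other cell types that the study names were read at start regions placed by figure axes. The epidermis marker LOC_Os08g02300, a NAC factor, held 0.0673, 0.0316, 0.0436 and 0.0477 cut sites per 10000 in root cap-like nuclei and 0.141 to 0.150 in other barcodes. The cortex marker LOC_Os01g68589 held 0.410 to 0.502 against 1.06 to 1.14, and the stele marker LOC_Os01g15830 held 0.499 to 0.605 against 0.970 to 1.05. For these 3 the groups did not overlap in any library, and none of the 3 was at 0. The endodermis marker LOC_Os01g15610 held 0.252 to 0.413 against 0.301 to 0.430, so its ranges overlapped. In the fit described next, the epidermis (log2 -1.57) and cortex (-1.21) markers passed both limits, and the stele (-0.83) and endodermis (-0.08) markers did not. Over its gene window, the stele marker held 0.698 in nuclei over 40000 cut sites and 0.470 in those of 20000 to 40000, and the cortex marker 0.522 and 0.433 (means of 4 libraries). The hair-locus group was low as well, at 0.0519 to 0.0955 for the epidermis marker, 0.398 to 0.454 for the cortex marker and 0.599 to 0.709 for the stele marker, and it held 0.148 to 0.238 at the endodermis marker. Against this group the log2 differences of root cap-like nuclei were -0.71, 0.06, -0.28 and 0.82, and none of the 4 passed both limits. Low values at these markers thus do not set root cap-like nuclei apart from the hair-locus group. The part of these cell types in the results below was not tested.

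The first comparison set the accessibility of root cap-like nuclei against the other barcodes of the same libraries. Cut sites were summed per library and region, and the 8 sums were fitted with the library as a block. Of 55412 tested regions outside 50 kb of the rule loci, 2803 (5.06%) were higher and 3581 (6.46%) were lower in root cap-like nuclei, by edgeR's quasi-likelihood test. The limits were a p of 0.01 after Benjamini-Hochberg adjustment and a 2-fold difference. Regions that rose had a median of 0.122 cut sites per 10000 in root cap-like nuclei and 0.0439 in other barcodes. Regions that fell had medians of 0.0207 and 0.0575. Called regions tended to be shorter, with a median length of 1293 bp for the higher and 1218 bp for the lower, against 1637 bp for those not called. They also lay beside each other. The next region on the chromosome was also higher for 21.5% of the higher regions, and also lower for 21.1% of the lower regions. The share of higher regions per chromosome ranged from 3.90% on chromosome 3 to 6.09% on chromosome 9.

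Neighbouring higher regions formed runs of up to 8. The run of 8 regions on chromosome 4 (18838543 to 18865243) spanned LOC_Os04g31610, listed for root cap only, and held 4.26 cut sites per 10000 in root cap-like nuclei against 1.28 in other barcodes. A run of 7 regions on chromosome 6 (30810385 to 30839133) spanned LOC_Os06g51180, listed for root cap only, and LOC_Os06g51190 and LOC_Os06g51200, listed for root cap and root hair, and held 2.11 against 0.569. A run of 7 regions on chromosome 2 (11107870 to 11117164) spanned LOC_Os02g18990 and LOC_Os02g19000, both listed for root cap only, and held 0.418 against 0.0944. A run of 7 on chromosome 11 (18163013 to 18190650) covered LOC_Os11g31570 of root cap only and LOC_Os11g31560 of both lists, with 2.17 against 0.856. Another run of 7, on chromosome 9 (13614243 to 13638359), held 3.13 against 1.13 and covered no located gene of the root cap block. The study's peak table gives LOC_Os09g23170 as a distal gene there. The longest lower run had 8 regions on chromosome 6 (20431864 to 20471532) and held 0.359 against 0.927.

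Start regions of root cap genes were higher in root cap-like nuclei far more often than the 5.06% of all regions. Of the 464 regions of the root cap list, 274 rose and 0 fell, with a median log2 difference of 1.13 against -0.01 over all regions tested. Of the 99 start regions of genes in both blocks, 80 rose and 0 fell, with a median of 1.41. Of the 964 regions of the root hair list, 138 rose and 1 fell, with a median of 0.38. DESeq2 called the same numbers of 274 and 80 higher and 0 lower, and at an unadjusted p under 0.05 edgeR had 6 lower on the root cap list and 0 lower among the genes in both blocks. As said above, the study chose these lists on the same libraries. Without the requirement at the shared loci, 1502 regions were higher and 664 lower over all regions.

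Against the hair-locus group, the most similar barcodes by the shared loci, the lists separated. This comparison was added after the data were seen. Of 55153 tested regions, 1860 (3.37%) were higher and 2034 (3.69%) lower in root cap-like nuclei. The root cap list had 168 higher and 0 lower of 464, with a median of 0.75. The root hair list had 2 higher and 251 lower of 964, with a median of -0.63. The genes in both blocks had 3 higher and 1 lower of 99, with a median of 0.09. The 2 lists thus differed in opposite directions, with the shared genes near the background. The rule itself set the 2 groups apart at the hair loci, and the study chose the lists on the same libraries. These directions are a description and not independent evidence.

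Among the first 20 genes of the root cap block, 16 could be tested, and 14 of them rose at their start region, against 5.06% of all regions. The block was chosen on the same libraries, and 274 of the 464 regions of the root cap list rose. LOC_Os11g29980 had the largest difference. Its start region, chr11:17137520-17138683, held 0.356 and 0.342 cut sites per 10000 in root cap-like nuclei of the Normal libraries and 0.355 and 0.372 in HS. Other barcodes held 0.0332, 0.0329, 0.0235 and 0.0232, and the hair-locus group held 0.0206 to 0.0307. The groups were far apart in every library, with a log2 difference of 3.74 ± 0.12 (SE, adjusted p = 1.25e-11).

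LOC_Os08g33910 came next, at chr8:20590531-20593081. It held 0.545 and 0.508 in Normal and 0.935 and 0.852 in HS, against 0.0910 to 0.0973 in other barcodes, a log2 difference of 2.95 ± 0.12 (adjusted p = 6.86e-11). LOC_Os11g37960 held 1.36, 1.41, 1.81 and 1.73, against 0.367 to 0.398, a difference of 2.10 ± 0.06. Both genes were higher in the HS than in the Normal root cap-like nuclei, by less than 2-fold. LOC_Os02g40070, shown by the study as a root cap gene, held 0.539 to 0.575 against 0.136 to 0.196, a difference of 1.85 ± 0.09.

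LOC_Os01g73700, the root cap marker the study names, held 0.218 and 0.216 in Normal and 0.232 and 0.285 in HS at chr1:42929897-42931587. Other barcodes held 0.0529 to 0.0573 and the hair-locus group 0.0932 to 0.0976. The log2 difference was 2.18 ± 0.10 from other barcodes and 1.29 from the hair-locus group, both past the limits. LOC_Os03g60279, another root cap gene of the study, was lower in level, with 0.0572 and 0.0392 in Normal and 0.133 and 0.127 in HS against 0.0105 to 0.0178. Its difference was 2.66 ± 0.21, and it is the only one of the 16 that also passed both limits between HS and Normal within root cap-like nuclei (log2 1.45 ± 0.21, adjusted p = 3.35e-06).

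The other called genes of the first 20 ran from 1.01 for LOC_Os07g46380 to 1.92 for LOC_Os03g14270. The start regions of LOC_Os02g51119 (0.34) and LOC_Os04g36642 (-0.21) did not pass. The latter held 0.0579 to 0.0790 in root cap-like nuclei and 0.0817 to 0.0846 in other barcodes. Summed over the gene and 2000 bp upstream, a sum for which no test was run, both genes were higher in root cap-like nuclei in each library. LOC_Os04g36642 held 0.641 to 0.738 against 0.149 to 0.169, and LOC_Os02g51119 held 2.00 to 2.27 against 0.805 to 0.856. The region with the largest difference in the comparison, chr4:22179878-22181033, lies on the same chromosome and held 0.325, 0.343, 0.400 and 0.376 against 0.0163 to 0.0255 (log2 4.15 ± 0.14). A second region beside it, chr4:22181692-22182634, had 0.260 to 0.412 against 0.0275 to 0.0330 (3.55 ± 0.10).

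Other large differences lay at the starts of LOC_Os04g35600 (4.08) and LOC_Os10g08280 (3.81) and in the body of LOC_Os08g10649 (3.73), all of the root cap block. In the ranking by size alone, 5 of the 10 highest regions overlapped a gene of that block. The block was chosen on the same libraries, and the share of all regions that overlap its genes was not counted. The 5 of 10 are thus a description only. Among well-covered regions that fell (a mean of 0.1 or more per 10000, a limit added after the data were seen), the largest fall was at chr8:3966497-3971087. It held 0.0599, 0.125, 0.0571 and 0.0460 in root cap-like nuclei and 0.539 to 0.544 in other barcodes, a log2 difference of -2.85 ± 0.16. The hair-locus group was also low there, at 0.0635, and against it the difference was 0.12 (adjusted p = 0.684). The regions chr1:22154375-22156100 (-2.85) and chr2:18487947-18490328 (-2.59) had the same pattern, with 0.13 and 0.18 against the hair-locus group, neither past the limits.

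Transcription factors were read next, since they are the regulators that bind accessible DNA. Of the 269 factors in the study's motif table, 10 are in its root cap block. Of their 10 start regions, 7 rose in root cap-like nuclei, against 5.06% of all regions. The block was chosen on the same libraries. On the root cap list 274 of 464 regions rose, and 80 of 99 among the genes in both blocks. The 7 of 10 are thus no result about transcription factors as a class. LBD factors, a plant family named for lateral organ boundaries, make up 4 of the 10, out of 5 in the motif table. All 4 rose. LOC_Os01g66590 held 0.276 and 0.240 in Normal and 0.326 and 0.327 in HS, against 0.0396 to 0.0460 in other barcodes, a log2 difference of 2.83 ± 0.09 (adjusted p = 1.82e-11). LOC_Os01g60960 held 0.259 to 0.304 against 0.0506 to 0.0632 (2.38 ± 0.09), and LOC_Os03g14270 held 0.253 to 0.430 against 0.0683 to 0.132 (1.92 ± 0.08). LOC_Os02g57490 held 0.358 to 0.497 against 0.193 to 0.237 (1.08 ± 0.07).

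The LBD genes did not all set root cap-like nuclei apart from the hair-locus group. LOC_Os01g66590 and LOC_Os03g14270 were higher by 2.54 and 1.95 on the log2 scale, both past the limits. LOC_Os01g60960 (0.78) and LOC_Os02g57490 (0.26) stayed under 2-fold there. Which LBD member differs from which was not tested.

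The NAC factor LOC_Os02g15340 held 1.01 and 0.938 in Normal and 0.857 and 0.837 in HS, against 0.149 to 0.205 in other barcodes and 0.438 to 0.679 in the hair-locus group. Its log2 difference was 2.44 ± 0.07 from other barcodes and 0.72 from the hair-locus group, the latter under 2-fold. The Dof factor LOC_Os01g64590 (1.33 ± 0.13) and the WRKY factor LOC_Os11g29870 (1.17 ± 0.08) also rose. The WRKY factor LOC_Os04g50920, listed for both root cap and root hair, held 2.15 to 2.82 against 1.11 to 1.53 and missed 2-fold narrowly (0.99 ± 0.05, adjusted p = 2.62e-10). The EIL factor LOC_Os03g20790 (0.86) and the AP2 factor LOC_Os04g42570 (0.53) did not pass.

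**Figure D3:**
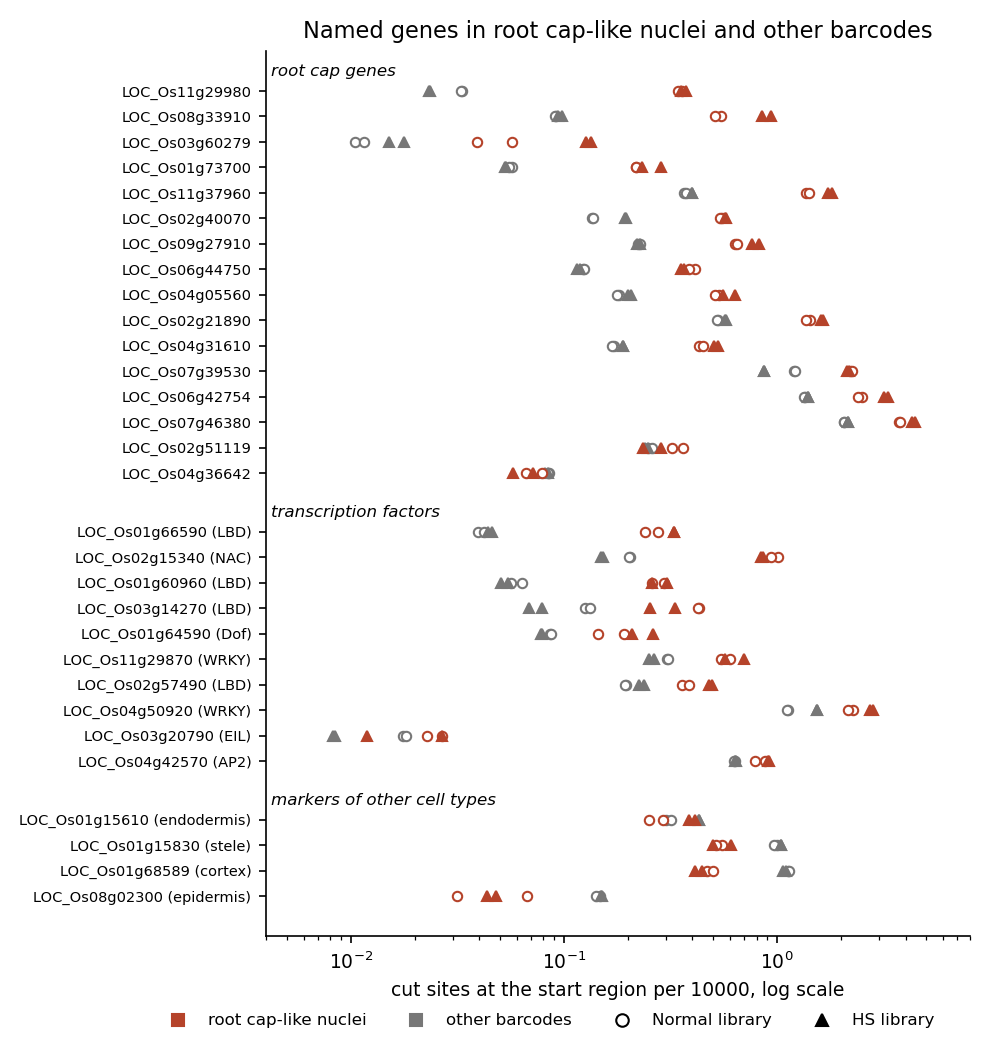
Cut sites per 10000 at the start region of named genes, on a log axis, in root cap-like nuclei (red) and other barcodes (grey). Open circles are Normal and triangles HS libraries, 1 point per library. LOC_Os11g29980 holds 0.342 to 0.372 against 0.0232 to 0.0332, and the epidermis marker holds 0.0316 to 0.0673 against 0.141 to 0.150.

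Root hair genes outside the rule loci were intermediate. LOC_Os10g42750, the root hair marker of the study, held 0.209, 0.225, 0.199 and 0.186 in root cap-like nuclei, 0.121 to 0.132 in other barcodes and 0.321 to 0.332 in the hair-locus group. The 3 groups did not overlap, but the difference from other barcodes was under 2-fold (log2 0.77 ± 0.09). LOC_Os07g41860 was lower than in the hair-locus group (log2 -1.48, adjusted p = 1.13e-08).

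The second comparison set HS against Normal within root cap-like nuclei, to describe the response to heat. The root cap-like nuclei held 11738996 to 14867915 cut sites per library in all its peaks, and the fitted sums hold a part of these. Of 52634 tested regions, 1075 (2.04%) were higher and 1421 (2.7%) lower in HS. In the other barcodes, fitted the same way after the data were seen, 1121 of 55411 (2.02%) were higher and 1628 (2.94%) lower. The sums of the other barcodes held many more cut sites. At an unadjusted p under 0.05 by edgeR, 37019 of their 55411 regions differed, against 18665 of 52634 in root cap-like nuclei. The similar shares thus do not show an equally wide response. Peaks were called in each library on its own, so the called length of a region could differ between conditions. Where the called length varied by under 10% between libraries, 95 were higher and 175 lower of 21968 tested. The 10 largest rises and 10 largest falls in HS all had 0 to 4 cut sites in each library of the low condition, and 19 of these 20 regions differed in called length by more than 4 times. Their fitted folds depend on the few counts and are not given.

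Among well-covered regions of the same called length, 44 rose and 56 fell past the limits. The largest rise was at chr1:10480541-10482858, from 0.140 and 0.161 in Normal to 0.509 and 0.449 in HS (log2 1.69 ± 0.12, adjusted p = 1.44e-12). The other barcodes went from 0.0593 and 0.0585 to 0.102 and 0.108 there (log2 0.84), under 2-fold. At chr2:30298831-30307888, which the study's peak table places in exons of LOC_Os02g49840 and LOC_Os02g49850, the level went from 0.474 and 0.467 to 1.23 and 1.22 (1.40 ± 0.07). The largest fall was at chr2:6190629-6192905, from 0.229 and 0.221 to 0.0579 and 0.0426 (-2.14 ± 0.18).

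Past both limits, the root cap list changed about as often between HS and Normal as all regions did. In root cap-like nuclei 9 of its 464 regions rose (1.94%) and 11 fell (2.37%), near the 2.04% and 2.7% of all regions. Smaller differences leaned upward. The median log2 difference was 0.09, against -0.00023 over all regions, and 283 of the 464 were positive. At an unadjusted p under 0.05 the list had 179 higher and 96 lower, against 9451 and 9214 of all 52634 regions. As given above, the list total in root cap-like nuclei was 255 and 253 cut sites per 10000 in Normal and 265 and 263 in HS, while in other barcodes it went from 139 and 139 to 136 and 136. Of the 10 transcription factors, 0 passed both limits by edgeR and 0 by DESeq2 in root cap-like nuclei, and 7 had an unadjusted p under 0.05. LOC_Os03g14270 had 0.430 and 0.424 in Normal and 0.253 and 0.333 in HS (log2 -0.52), and LOC_Os02g57490 had 0.358 and 0.386 against 0.497 and 0.477 (0.41), both with an adjusted p under 0.01 and a change under 2-fold.

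Genes known for heat responses were taken from a list of 14, of which 10 could be located, in 7 regions. Heat shock proteins are chaperones and proteases that protect other proteins at high temperature, and heat stress transcription factors (HSF) switch on their genes. Positions came from the study's table of peaks that changed with heat in its root hair cluster, so a rise in these regions is in part a condition of being located. In root cap-like nuclei 3 of the 7 regions rose past both limits by edgeR and by DESeq2, against 2.04% of all regions, and 0 fell, also at an unadjusted p under 0.05. The region of LOC_Os04g01740 held 0.156 and 0.122 cut sites per 10000 in Normal and 0.835 and 0.814 in HS (log2 2.59 ± 0.10, adjusted p = 5.07e-18). In the other barcodes it held 0.219 and 0.210 in Normal and 0.732 and 0.705 in HS (1.75). The Normal root cap-like nuclei were thus the lowest and the HS ones the highest of the 4 groups. The difference between the 2 heat effects was 0.83 ± 0.10 (adjusted p = 2.49e-08), under 2-fold. Its called length differed by 1.54 times between libraries.

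The region that holds LOC_Os03g16020, LOC_Os03g16030 and LOC_Os03g16040 had the same order. It went from 0.473 and 0.482 to 1.22 and 1.08 in root cap-like nuclei (1.29 ± 0.07) and from 0.607 and 0.620 to 1.06 and 1.04 in other barcodes (0.78). The difference of the effects was 0.51 ± 0.07 (adjusted p = 8e-07). LOC_Os03g14180 went from 0.166 and 0.189 to 0.512 and 0.418 (1.41 ± 0.12), and by 1.25 in other barcodes. LOC_Os05g44340 went from 0.476 and 0.512 to 0.903 and 0.980 (0.95 ± 0.07), just under 2-fold.

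The other 3 regions of the list stayed under 2-fold in root cap-like nuclei. The region of LOC_Os03g16920 went from 1.91 and 1.85 to 2.31 and 2.29 (0.31 ± 0.05, adjusted p = 1.02e-05), and from 1.51 and 1.49 to 2.06 and 2.05 in other barcodes (0.46). The difference of these effects did not pass (-0.15 ± 0.05, adjusted p = 0.0572). The region of LOC_Os01g04370 and LOC_Os01g04380 held 2.59 and 2.56 in Normal and 2.61 and 2.53 in HS, so it was high in both. In other barcodes it went from 1.63 and 1.65 to 2.18 and 2.16. The heat effect in root cap-like nuclei minus that in other barcodes was -0.40 ± 0.05 (adjusted p = 4.81e-08), under 2-fold. The region of the HSF gene LOC_Os10g28340 held 1.24 and 1.15 in Normal and 1.25 and 1.24 in HS. Other barcodes went from 1.00 and 0.990 to 1.26 and 1.26 there. The difference there was -0.27 ± 0.06 (adjusted p = 0.00187). At the regions of LOC_Os01g04370 and LOC_Os10g28340 the Normal root cap-like nuclei lay above the Normal other barcodes in each library.

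**Figure D4:**
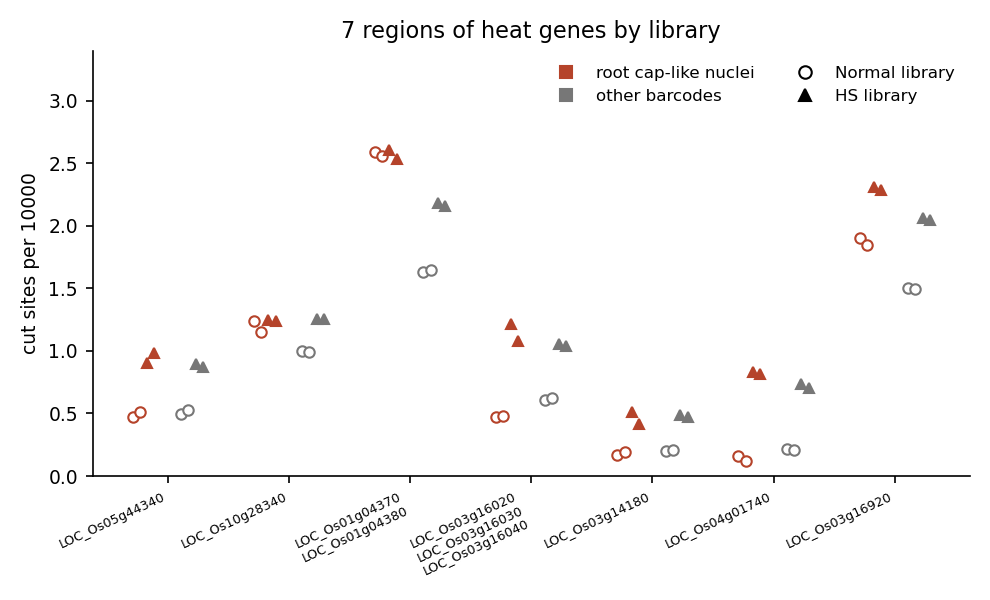
Cut sites per 10000 at the 7 regions of the heat list, in root cap-like nuclei (red) and other barcodes (grey), with 1 point per library. Open circles are Normal and triangles HS libraries. At LOC_Os04g01740 root cap-like nuclei go from 0.122 to 0.156 up to 0.814 to 0.835, while at LOC_Os01g04370 and LOC_Os01g04380 they stay at 2.53 to 2.61.

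The third comparison tested whether the heat effect differed between root cap-like nuclei and the other barcodes, as an interaction with the library as a block. Both sums of a library share its peaks, but a called length that differs between conditions covers other sequence, so these results can still depend on it. Where the called length was the same, 39 regions had a higher and 52 a lower heat effect of 22109 tested. Of 55412 tested regions, 92 (0.166%) had a higher and 161 (0.291%) a lower heat effect in root cap-like nuclei. Of the 92, 58 were called higher in HS within root cap-like nuclei, and 13 were called lower in HS within the other barcodes. Of the 161, 103 were called lower in HS within root cap-like nuclei, and 9 were called higher in the other barcodes. The fitted effects of the 2 groups had opposite signs at 45 of the 92 and at 59 of the 160 lower regions tested within root cap-like nuclei. The median effect in other barcodes was near 0 at both sets (log2 -0.08 and -0.12). Opposite signs thus need not mean opposite responses. Of the root cap list, 2 of 464 regions were higher and 2 lower, and 145 were higher and 58 lower at an unadjusted p under 0.05, against 5022 and 5963 of all regions. Of the 7 heat regions 0 passed both limits by edgeR and 0 by DESeq2, while 5 had an unadjusted p under 0.05. Without Normal replicate 2 the lower regions numbered 94, and without the requirement at the shared loci 40.

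**Figure D5:**
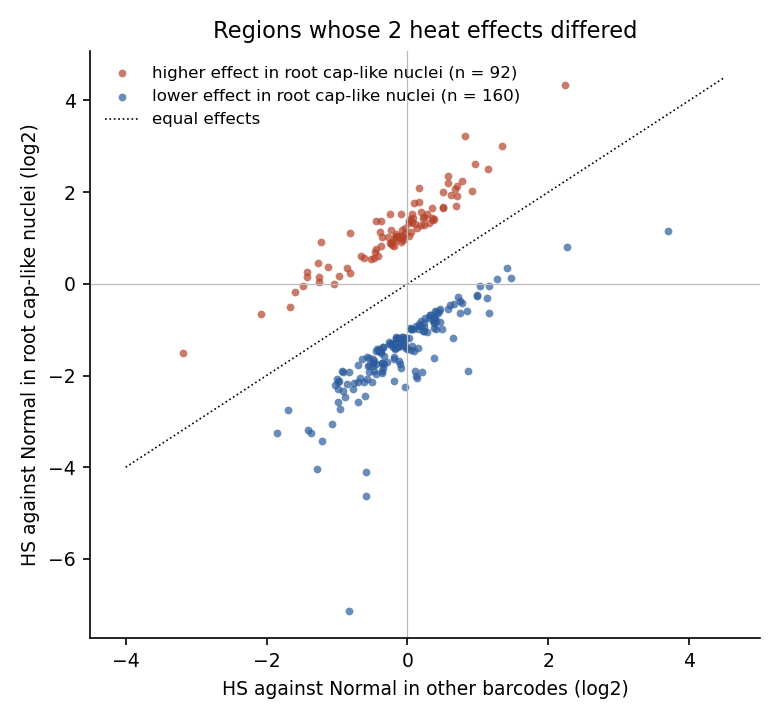
Log2 HS against Normal in root cap-like nuclei (y axis) and in other barcodes (x axis) at the regions whose 2 effects differed past the limits, 92 higher and 160 lower. The dotted line marks equal effects. The median effect of the higher regions is 1.16 in root cap-like nuclei and -0.08 in other barcodes, and that of the lower regions is -1.39 and -0.12. The gap around the line follows from the 2-fold limit. 1 further lower region was not tested within root cap-like nuclei.

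Many of these regions had few counts, so those of a mean of 0.1 or more per 10000 are described, 27 higher and 37 lower, a limit added after the data were seen. At chr3:3901451-3902647 root cap-like nuclei went from 0.184 and 0.126 to 0.396 and 0.396, while other barcodes stayed at 0.0302 to 0.0322. The difference of effects was 1.36 ± 0.19 (adjusted p = 5.26e-07). At chr7:16235963-16237695, in the body of the root cap block gene LOC_Os07g28160, root cap-like nuclei went from 0.0726 and 0.0667 to 0.271 and 0.258 and other barcodes from 0.0303 and 0.0332 to 0.0466 and 0.0509. The 2 effects were 1.95 and 0.62 on the log2 scale and differed by 1.32 ± 0.22.

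In the lower direction, chr1:23836881-23839915 went from 0.139 and 0.194 to 0.0495 and 0.0716 in root cap-like nuclei and stayed at 0.158 to 0.168 in other barcodes (-1.50 ± 0.19, adjusted p = 4.59e-08). At chr11:5503549-5505010 the 2 fitted effects had opposite signs, -0.60 and 0.85, each under 2-fold. Root cap-like nuclei went from 0.188 and 0.192 to 0.114 and 0.133, and other barcodes from 0.0942 and 0.0890 to 0.166 and 0.163 (-1.46 ± 0.16). At chr2:19268929-19284674 both groups fell, the other barcodes from 0.519 and 0.512 to 0.0543 and 0.0590 and root cap-like nuclei from 0.412 and 0.433 to 0.134 and 0.157. The effect was thus higher in root cap-like nuclei (1.66 ± 0.13), through a smaller fall. Its called length was 15657 and 15734 bp in the Normal libraries and 2020 and 2109 bp in HS, and its part in both falls was not tested.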

How the data were processed

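The authors ran Cell Ranger ATAC (1.2.0, per the labels) on each library and deposited peaks and raw counts of Tn5 cut sites per peak and barcode, not normalized and not filtered for cells. Peaks sharing at least 1 bp were merged in Python 3.11.15 (numpy 2.4.6, scipy 1.17.1, pandas 2.3.3) into 66332 regions. All 4 libraries called 55496 of them, and 83 lay within 50 kb of the rule loci and were not tested. Counts were summed per library, since barcodes are not replicates. The quasi-likelihood test of edgeR 4.0.16 (R 4.3.3) was run after filterByExpr and TMM scaling, and DESeq2 1.42.0 was an alternative. The scripts were tested on simulated data. The start region of a gene covers its start or lies within 2000 bp upstream. No doublet caller was run here. Barcodes were filtered by the depth range and grouped by the rule, with no other filter. Members, lists and limits were chosen with earlier results of these data known. Named were the root cap genes the study shows, the first 20 of its root cap block, its transcription factors, the heat list and the 10 largest calls each way per test. Gene positions came from the study's supplementary tables, which were held in part, and the positions of 4 markers from figure axes. The deposited counts are cut sites, so both ends of a fragment are counted and neighbouring values are not independent molecules. Alternatives changed the test, normalization, filter, limits, gate, comparison barcodes, called length and libraries. Reference annotation of another assembly was not used here, and sequences and motifs were not analysed here.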

Additional observations from a re-analysis of the deposited data

Results flagged for a closer look

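The heat effect of root cap-like nuclei differed from that of the other barcodes at the regions given here, by edgeR's test of the interaction with the limits of the report. Values in parentheses are the log2 HS against Normal in root cap-like nuclei minus that in the other barcodes. The 10 regions with the largest positive difference were chr1:33180154-33180976 (2.47), chr11:26232829-26233870 (2.12), chr9:13929628-13930837 (2.12), chr4:794560-795827 (1.94), chr6:15362134-15363278 (1.93), chr4:13819895-13820663 (1.83), chr7:19166583-19167627 (1.80), chr11:25873717-25874208 (1.78), chr2:19444467-19444918 (1.76), chr10:592968-594089 (1.76). At the first of these root cap-like nuclei had 6 and 2 cut sites in the Normal libraries and 27 and 34 in HS, and the level in other barcodes went from 0.00916 to 0.0161 per 10000 on average.

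The 10 regions with the largest negative difference were chr7:28000488-28000924 (-9.77), chr5:10946162-10946662 (-4.30), chr2:6271088-6271360 (-4.25), chr4:15439305-15440495 (-3.59), chr12:6362998-6364079 (-2.83), chr4:24617398-24618101 (-2.80), chr12:21114389-21115842 (-2.55), chr4:12750459-12751666 (-2.27), chr1:29199711-29200796 (-2.24), chr8:20395691-20396261 (-2.23). At the first of these root cap-like nuclei had 0 cut sites in both HS libraries, so its fitted value is no bound. Several of these regions rest on few cut sites. At chr12:21114389-21115842 the called length was 76 and 200 bp in Normal and 1442 and 1433 bp in HS. At chr8:20395691-20396261 the counts of root cap-like nuclei were 74 and 83 in Normal and 13 and 13 in HS, while the other barcodes held 341 and 309 cut sites in replicate 1 of Normal and of HS.

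Among regions with a mean of 0.1 or more per 10000, a limit added after the data were seen, the 10 largest positive differences were chr2:19268929-19284674 (1.66), chr3:3901451-3902647 (1.36), chr11:15676732-15678837 (1.34), chr3:31189228-31190742 (1.34), chr7:16235963-16237695 (1.32), chr1:28572766-28574904 (1.19), chr4:5101823-5104497 (1.15), chr6:7241310-7244204 (1.14), chr6:23701092-23704859 (1.14), chr3:29871415-29874957 (1.14).

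Among regions with a mean of 0.1 or more per 10000, a limit added after the data were seen, the 10 largest negative differences were chr5:10147224-10149771 (-1.65), chr1:23836881-23839915 (-1.50), chr2:10538628-10540409 (-1.48), chr11:5503549-5505010 (-1.46), chr2:6190629-6192905 (-1.44), chr10:1621937-1624564 (-1.37), chr2:3108390-3110053 (-1.36), chr11:1851394-1854606 (-1.24), chr8:18724859-18728155 (-1.24), chr11:5390244-5392749 (-1.24). Past this limit on the mean, 27 regions had a positive and 37 a negative difference. The groups held 2 libraries per condition, too few for a check of single libraries that stand apart.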

How the results depend on the processing

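Accepting an adjusted p of at most 0.05 with no fold limit gave 6637 higher and 6311 lower regions for HS against Normal in root cap-like nuclei, 13154 and 13440 for root cap-like nuclei against other barcodes, and 2037 and 2317 for the difference in the heat effect. Regions of the same called length, of which fewer were tested, gave 95 and 175, 981 and 1493, and 39 and 52. Without the requirement at the shared loci root cap-like nuclei against other barcodes gave 1502 and 664, and the lower regions in the difference of heat effects numbered 40. Against the hair-locus group root cap-like nuclei had 1860 and 2034 regions. The cause was not tested. The share of root cap-like nuclei, HS minus Normal, was -0.16 percentage points. It turned to 0.14 with 8 or more cut sites at the cap loci and to 0.0079 with under 2 per 10000 at the hair loci. At 15000 to 40000 cut sites it was -0.28, and without the requirement at the shared loci -0.52. Other tests, normalizations, filters, depth ranges and gates kept each count within 1.5 times.

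Leaving out 1 library at a time gave 965 to 1035 higher and 1082 to 1532 lower regions for HS against Normal, 2747 to 2822 and 3263 to 3485 against other barcodes, and 74 to 108 and 94 to 206 for the difference in the heat effect, where the 94 came without Normal replicate 2. The share difference ranged from -0.23 to -0.08 percentage points.

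Deviations of same-numbered libraries correlated by 0.005 over all regions and 0.012 at the same called length, so the replicate numbers were not used as pairs. With 2 libraries per condition, counting noise can also give such values, and the check cannot exclude a pairing. With the number as a replicate block HS against Normal gave 1083 and 1461 regions. With this block in place of the library, the difference in the heat effect gave 61 and 102. Without the library as a block root cap-like nuclei against other barcodes gave 2401 and 2551.

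Of 2982 values of named genes and regions under the alternatives, 2711 kept their side of the limits, 217 lost the call, 48 gained it and 6 reversed, all 6 against the hair-locus group. These were LOC_Os07g41860 (-1.48), LOC_Os01g68589 (0.057), chr8:3966497-3971087 (0.12), chr1:22154375-22156100 (0.13), chr2:18487947-18490328 (0.18) and chr10:18066236-18068298 (0.077). Among the 2711 values that kept their side, 28 that were not called changed sign and stayed uncalled. Depth limits the regions with few cut sites, since root cap-like nuclei held 11738996 to 14867915 cut sites per library over all its peaks.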
